A study of Arabidopsis thaliana with 3 samples.

Results

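The mRNAs of 10 JAZ genes (JAZ1, JAZ2, JAZ3, JAZ5, JAZ6, JAZ7, JAZ8, JAZ9, JAZ10 and JAZ12) were taken from a transcriptome-wide survey of mRNA 3′ ends by TAIL-seq. They were listed by locus identifier, with earlier results of these data known, and are 10 of the 16577 loci with reads. TAIL-seq ligates an adapter to the 3′ end of each RNA, so that a read pair gives the gene and the poly(A) tail with any nucleotide added after it. The material was flowers (flower buds in the study's methods) of Arabidopsis thaliana plants of the wild-type accession Col-0, grown on soil in long days without further treatment. The 3 libraries are biological replicates of this single group, and each comparison below is therefore between mRNAs within the same libraries. The labels do not give the age of the plants or the number pooled, and flowers mix many cell types.

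JAZ proteins are transcriptional repressors of the jasmonate response and belong to the TIFY family. When the hormone conjugate jasmonoyl-isoleucine is present, the F-box receptor COI1 captures the C-terminal Jas motif of most JAZ proteins and marks them for degradation, which frees transcription factors such as MYC2. In flowers, jasmonate is known for its role in stamen maturation and male fertility. JAZ transcripts are themselves induced by jasmonate in many tissues and are generally short-lived. Uridylation is the addition of a few uridines to the 3′ end of an mRNA, in Arabidopsis mostly by the terminal uridylyltransferase URT1, and it is found chiefly on tails that have already been shortened.

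The JAZ mRNAs gave 310 reads, all of them assigned to a single gene, and 82 of these ended in added uridines. In replicates 1, 2 and 3 there were 187, 65 and 58 JAZ reads among 222681, 113458 and 106777 reads in all. The reads of JAZ9 (126), JAZ6 (83), JAZ5 (27) and JAZ1 (25) reached the minimum of 20 pooled reads used for tests, and the 6 other members held 49 reads together. A read counts a 3′ end whatever the length of the mRNA. A read number here is the depth behind a percentage.

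**Figure D1:**
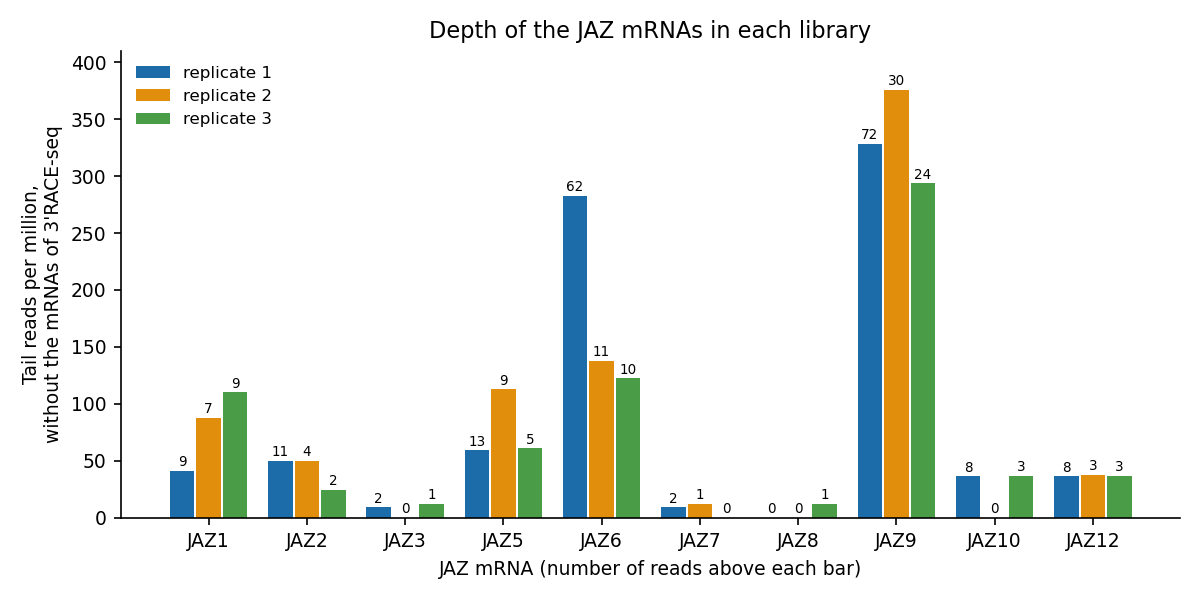
Reads of each JAZ mRNA in replicates 1 (blue), 2 (orange) and 3 (green), scaled to the size of each library (left axis) after removal of the mRNAs that the study also followed by 3′RACE-seq, which amplifies chosen 3′ ends. The number above a bar is the number of reads, from 72 for JAZ9 in replicate 1 down to 0 for several members.

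The libraries differed from each other before any JAZ mRNA was considered. Over all reads, 7.41%, 9.96% and 11.6% of tails were uridylated in replicates 1, 2 and 3, and the median poly(A) length of tails without added nucleotide was 26, 22 and 22 As. The read names give a different sequencing run for replicate 1 (106) than for replicates 2 and 3 (117). The mRNAs followed by 3′RACE-seq made up 1.58% of the reads of replicate 1 but 29.6% and 23.4% of replicates 2 and 3. Without these mRNAs, 7.44%, 10.99% and 12.5% of tails were uridylated in replicates 1, 2 and 3. The part of these differences in the values below was not tested, and library was kept as a stratum in each test.

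Examples of the tails are given 5′ to 3′ as read, with the As in lower case and the added uridines in capitals. They are shown because the additions were short: of the 82 uridylated JAZ tails, 55 carried 1 U, 24 carried 2 and 3 carried 3.
JAZ1, replicate 3: aaaaaaaaaaaUU
JAZ2, replicate 2: aaaaaaaaaUUU
JAZ3, replicate 1: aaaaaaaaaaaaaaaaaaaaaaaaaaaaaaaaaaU
JAZ5, replicate 1: aaaaaaaaaaaaaaUU
JAZ5, replicate 3: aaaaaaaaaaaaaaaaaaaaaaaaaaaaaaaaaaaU
JAZ6, replicate 1: aaaaaaaaaaaaaaU
JAZ7, replicate 2: aaaaaaaaUU
JAZ8, replicate 3: aaaaaaaaaaU
JAZ9, replicate 1: aaaaaaaaaaaUUU
JAZ9, replicate 2: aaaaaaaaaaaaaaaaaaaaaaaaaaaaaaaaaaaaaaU
JAZ10, replicate 3: aaaaaaaaaaaaaaUU

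As a family, the 10 JAZ mRNAs, which do not include JAZ4, JAZ11 and JAZ13, were more often uridylated than the rest of each library. The uridylated share was 21.4% (95% Wilson interval 16.1 to 27.8) in replicate 1, 29.2% (19.6 to 41.2) in replicate 2 and 39.7% (28.1 to 52.5) in replicate 3, with a mean of 30.1% ± 9.16 (SD, n = 3). All other reads of the same libraries gave 7.40%, 9.95% and 11.6%. The JAZ share exceeded them by 13.99, 19.3 and 28.05 percentage points, on average 20.4 ± 7.10 (SD, n = 3), and each JAZ interval lay wholly above the value of its library. The members had been picked with results of these libraries known, so no p is given for the family, and a test that flips the sign of 3 paired differences could not give a p below 0.25. Intervals cover counting error only.

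The family value did not rest on its deepest members. Without JAZ6 and JAZ9, 27 of the remaining 101 reads were uridylated (26.7%), against 26.5% (21.9 to 31.6) of all 310 pooled reads. Leaving out each member in turn gave between 25.1%, without JAZ5, and 27.7%, without JAZ12. The length of the addition showed no difference beyond counting error: 32.5%, 36.8% and 30.4% of the uridylated JAZ tails carried 2 or more Us (mean 33.3% ± 3.27, SD, n = 3), against 31.7%, 36.8% and 38.0% of other uridylated tails.

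**Figure D2:**
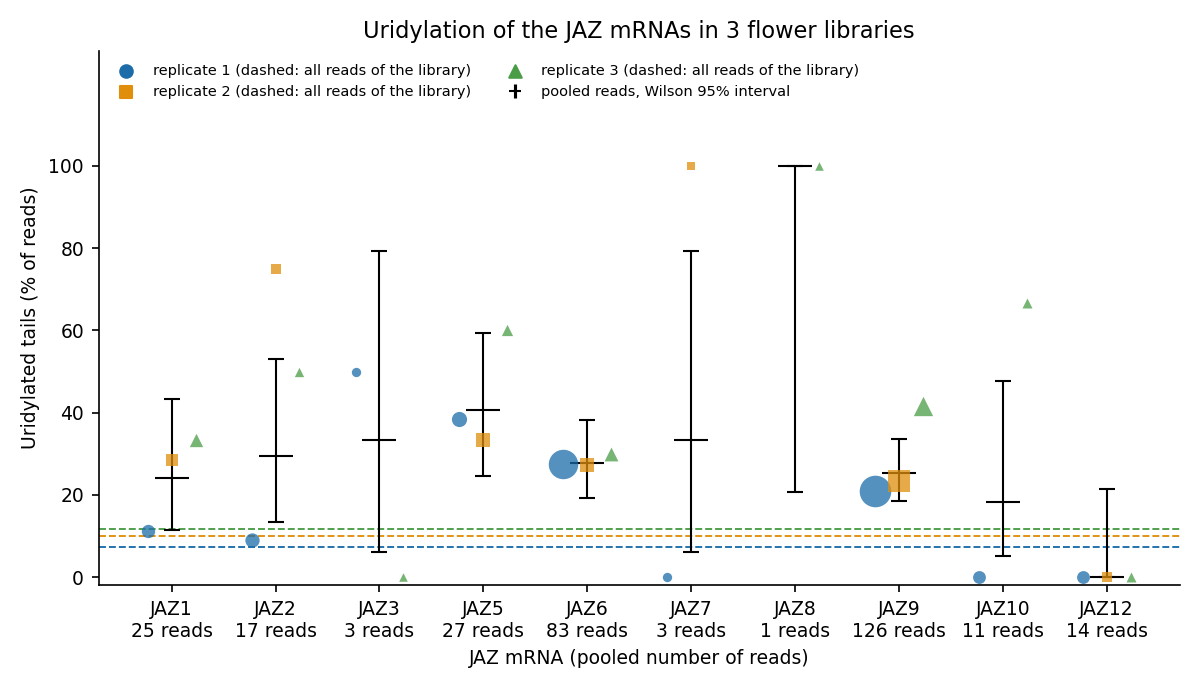
Uridylated share of the reads of each JAZ mRNA in replicates 1 (blue circles), 2 (orange squares) and 3 (green triangles), with symbol area growing with the number of reads, and of pooled reads with 95% Wilson intervals (black). Dashed lines give all reads of each library, at 7.41%, 9.96% and 11.6%; JAZ5, JAZ6 and JAZ9 lie above them in all 3 libraries and JAZ12 lies at 0.

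Each mRNA with at least 20 pooled reads was compared with all other mRNAs by an exact conditional test with library as stratum, two-sided, with Benjamini-Hochberg adjustment over all 3439 mRNAs tested. Of these, 314 (9.13%) were called above the other mRNAs at an adjusted p under 0.05 and 245 (7.12%) below. Of the 4 JAZ mRNAs tested, 3 were called above (JAZ5, JAZ6 and JAZ9) and 0 below. Over all tested mRNAs the median uridylated share was 8.00%, with quartiles of 4.20% and 14.3%, against a median of 26.6% for the 4 JAZ mRNAs. A second exact test took library and number of As together as strata, so that a tail was compared only with tails of the same length. It called 266 mRNAs above (7.73%) and 179 below (5.21%), and the same 3 JAZ mRNAs above.

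JAZ5 (AT1G17380, TAIR10.1 chromosome 1, 5955155 to 5957511, minus strand) and JAZ6 (AT1G72450, chromosome 1, 27273968 to 27276562, minus strand) encode a closely related pair of repressors. JAZ5 was uridylated in 5 of 13, 3 of 9 and 3 of 5 reads of replicates 1, 2 and 3 (38.5%, 33.3% and 60%), all 3 above their library. Its pooled share of 40.7% (24.5 to 59.3, 27 reads) was 4.51 times the number expected from the other mRNAs (adjusted p = 0.000208, exact conditional test), and 39 of the 3439 mRNAs had a higher share. At matched poly(A) length the ratio was 2.82 (adjusted p = 0.00451, exact conditional test). Without replicate 1 or replicate 2 the mRNA falls under 20 reads and was not tested, and counting only tails with at least 2 Us its share was 7.41% (adjusted p = 0.638, exact conditional test). The uridylated JAZ5 tails ran from 12 to 35 As, with a median of 18.

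JAZ6 was uridylated in 17 of 62, 3 of 11 and 3 of 10 reads (27.4%, 27.3% and 30%), the narrowest spread between libraries of the 4 tested members. The pooled share was 27.7% (19.2 to 38.2, 83 reads), or 3.36 times the expected number (adjusted p = 5.62e-06, exact conditional test), and 2.34 times at matched length (adjusted p = 0.000441). Replicate 1 supplied most of its reads. Without replicate 1 the share was 28.6% and the adjusted p 0.108, and with at least 2 Us required the share was 6.02% (adjusted p = 0.379), both by the exact test. Its uridylated tails ran from 8 to 30 As, with a median of 14, and 18 of the 23 carried 1 U.

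JAZ9 (TIFY7, AT1G70700, chromosome 1, 26654529 to 26657350, plus strand), the best covered member, was uridylated in 15 of 72, 7 of 30 and 10 of 24 reads (20.8%, 23.3% and 41.7%). Replicate 3 was the highest and each was above the level of its library. The pooled share was 25.4% (18.6 to 33.6, 126 reads), 2.88 times the expected number (adjusted p = 1.38e-06, exact conditional test) and 1.92 times at matched length (adjusted p = 0.00103). JAZ9 stayed above the other mRNAs when only tails with at least 2 Us were counted (10.3%, adjusted p = 0.00339), but not at matched length under that definition (ratio 1.90, adjusted p = 0.184), both by the exact test. Of its 32 uridylated tails, 11 carried 2 Us and 2 carried 3, and their median was 11.5 As.

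The JAZ9 locus also holds a genomic sequence that looks like such a tail, which is why it is printed here. It lies 83 bases past the annotated 3′ end (TAIR10.1, chr1:26657433-26657444, plus strand) and is a run of 10 As followed by 2 Ts, shown in capitals with its flanks:
JAZ9 downstream run: tacagtaaacAAAAAAAAAATTgtgaacca
An RNA ending within the Ts of this run would be read as 10 As with 1 or 2 Us. Of the 32 uridylated JAZ9 tails, 9 equalled a genomic run of As followed by Ts on the sense strand of the locus or within 300 bases of it, and 7 of these equalled the run above. The table does not give the positions of the reads, so the origin of these 7 tails was not tested. After removal of these tails and of plain tails no longer than a genomic run of As (in all 11 tails of JAZ9 and 10 of JAZ6, 2 of the latter uridylated, and none of JAZ5 or JAZ1), an alternative chosen after seeing the data, JAZ9 was uridylated in 23 of 115 reads (20%, 13.7 to 28.2, adjusted p = 0.00216, exact conditional test), with a ratio of 1.77 at matched length (adjusted p = 0.0286). JAZ6 then stood at 21 of 73 reads (28.8%, adjusted p = 1.09e-05, exact conditional test). The JAZ6 tails removed matched a run of 16 As and 1 T (chr1:27276445-27276461, minus strand). That run lies near the 5′ end of the gene, so the JAZ6 value does not bear on runs near its 3′ end. The tails of other mRNAs were not removed in this way.

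JAZ1 (AT1G19180, chromosome 1, 6621777 to 6623668, plus strand), a founding member of the family and an early jasmonate-induced gene, was uridylated in 1 of 9, 2 of 7 and 3 of 9 reads. JAZ1 was above the level of each library, but the pooled 24.0% (11.5 to 43.4) did not pass the test (ratio 2.49, p = 0.0282 before and 0.127 after adjustment, exact conditional test; ratio 2.85 and adjusted p = 0.0749 at matched length). With 25 reads the interval still includes values from below the upper quartile of all mRNAs to those of JAZ5.

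The members under 20 reads are given as counts. JAZ2 (TIFY10B, AT1G74950), which has been linked to stomatal responses, was uridylated in 1 of 11, 3 of 4 and 1 of 2 reads, or 29.4% of 17 (13.3 to 53.1). JAZ10 (AT5G13220), known for splice variants that resist degradation, had 0 of 8 and 2 of 3 uridylated reads in replicates 1 and 3 and no read in replicate 2. JAZ12 (AT5G20900), a target of the ubiquitin ligase KEEP ON GOING, had 0 of 8, 0 of 3 and 0 of 3. JAZ12 was the only member without a uridylated read. Its 0 of 14 reads allows a share of up to 21.4%, so a level near that of the other mRNAs, or above it up to this limit, was not excluded.

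JAZ3 (AT3G17860) had 1 uridylated tail among 3 reads, and JAZ7 (AT2G34600) likewise 1 among 3. The single read of JAZ8 (AT1G30135), whose protein lacks the canonical degron and is stable in the presence of the hormone, was uridylated. Together the 6 members under the minimum had 10 uridylated tails in 49 reads. With the minimum lowered to 10 reads, JAZ2, JAZ10 and JAZ12 could be tested and none was called (adjusted p of 0.0770, 0.563 and 0.889, exact conditional test). RefSeq places other genes partly over JAZ10 and JAZ12 on the opposite strand (AT5G02045 over 71 bases of JAZ10, AT5G03235 over 211 and AIP2 over 28 bases of JAZ12), and 0 JAZ reads were assigned to another gene.

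Tail length was examined next, since short tails are uridylated more often in these libraries. Among tails without an added nucleotide, the median poly(A) length of the JAZ mRNAs was 26.5, 21 and 18 As in replicates 1, 2 and 3 (mean 21.8 ± 4.31, SD, n = 3), against 26, 22 and 22 As for other reads. The share of such tails over 25 As was 53.4%, 26.1% and 20.6% (mean 33.4% ± 17.6), against 52.1%, 37.7% and 37.7%. Replicate 1 was thus level with its library while replicates 2 and 3 were lower, on 46 and 34 JAZ tails. The interval of the share in replicate 2 (15.6 to 40.3) included the value of other reads. That of replicate 3 (10.3 to 36.8) lay just below it. Leaving out uridylated tails, which were mostly short, takes a larger part of the JAZ tails than of other tails. Counting all tails by number of As, the JAZ share over 25 As was 26.6% ± 15.5 and the median 20.3 ± 3.06 As (means and SD, n = 3). In that alternative 0 JAZ mRNAs were called with fewer tails over 25 As.

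Only JAZ9 and JAZ6 had 20 such tails. JAZ9 had 49.5% of 93 tails over 25 As (p = 0.600, adjusted p = 0.857) and JAZ6 40.7% of 59 (p = 0.240, adjusted p = 0.562), by the same exact conditional test, and neither was called. Of 3033 mRNAs, 197 (6.5%) had more and 166 (5.47%) had fewer tails over 25 As than the others. In JAZ9 the share of tails over 25 As was 68.4% in replicate 1 (39 of 57), 21.7% in replicate 2 (5 of 23) and 15.4% in replicate 3 (2 of 13). JAZ6 had 40.9% (18 of 44), 37.5% (3 of 8) and 42.9% (3 of 7), with few tails in replicates 2 and 3.

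**Figure D3:**
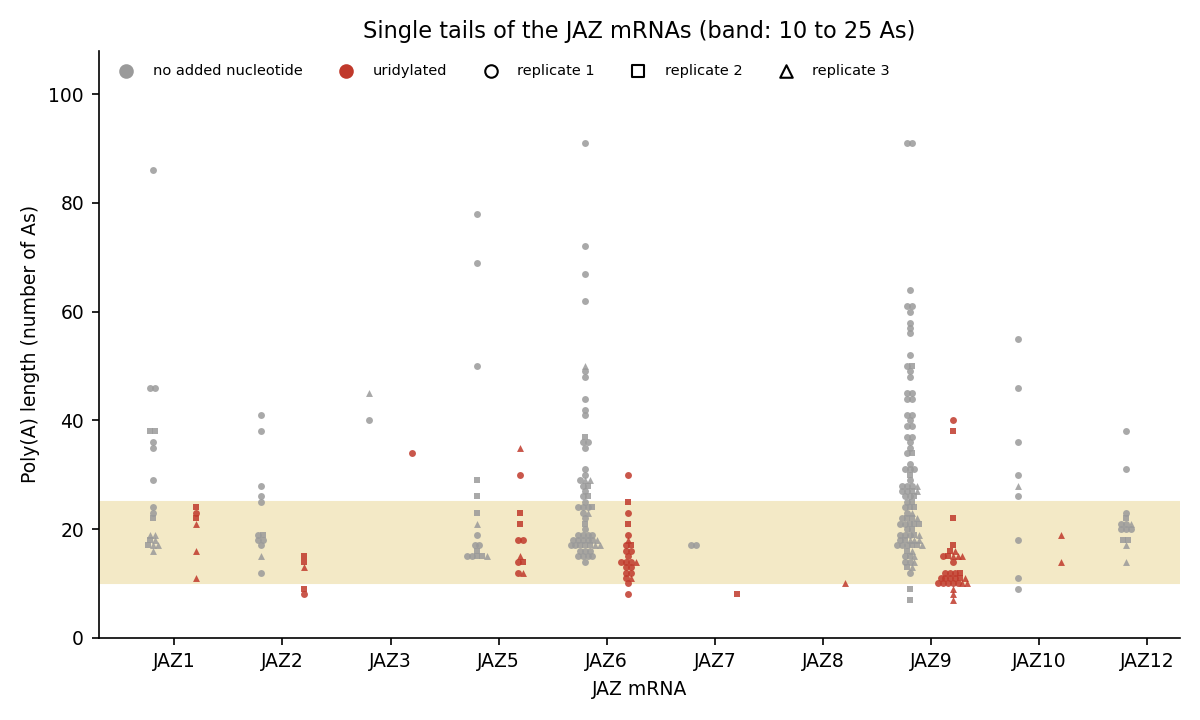
Poly(A) length of single tails of each JAZ mRNA, in number of As, without added nucleotide (grey) and uridylated (red), with circles, squares and triangles for replicates 1, 2 and 3. The band marks 10 to 25 As, which holds 84.1% of the uridylated JAZ tails. The 2 tails with an added G or C are not drawn, and the 3 tails at 91 nucleotides filled the read.

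Most uridylated JAZ tails were short. Their median was 13, 17 and 14 As in replicates 1, 2 and 3, against 15 As in each library for other mRNAs, and 84.1% had 10 to 25 As, the range of oligoadenylated tails in the study, against 84.2% of other uridylated tails. Within this range 33.7% (25.2 to 43.3), 33.3% (21.7 to 47.5) and 41.3% (28.3 to 55.7) of JAZ tails were uridylated, with a mean of 36.1% ± 4.51 (SD, n = 3). Other mRNAs had 12.3%, 13.6% and 16.0%. Here the 3 libraries lay closer together than over all tails. Taking library and exact length into account, 82 uridylated JAZ tails compare with 38.7 expected, a ratio of 2.12, and by library the ratio was 1.96, 2.51 and 2.14 (mean 2.20 ± 0.281, SD, n = 3).

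The JAZ share was above that of other tails in 7 of 8 length classes, and its interval lay above theirs in 5. At 10 to 12 As, 26 of 29 JAZ tails were uridylated (89.7%, 73.6 to 96.4), against 36.0% of other tails. By library these were 17 of 20, 2 of 2 and 7 of 7, against 39.6%, 33.5% and 34.2%. JAZ9 gave 17 of its 18 tails of that length, JAZ6 gave 5 of 5, and without JAZ9 there were 9 of 11. After removal of the tails that match a genomic run, 19 of 22 remained uridylated (86.4%).

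Shares were lower among longer tails. At 13 to 15 As, 20 of 40 JAZ tails were uridylated (50%, 35.2 to 64.8), against 29.99% of others. At 16 to 18 As the shares were 18.97% (10.9 to 30.9, 58 tails) and 14.6%, and here the interval includes the other mRNAs. The 19 to 21 class likewise overlapped, with 14.3% (6.26 to 29.4, 35 tails) and 6.63%. At 22 to 25 As the shares were 21.2% (10.7 to 37.8, 33 tails) and 3.35%, and at 26 to 40 As 9.52% (4.44 to 19.3, 63 tails) and 1.93%, both with intervals above the other mRNAs.

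Uridylated tails over 25 As were rare but present. There were 6 among 105 JAZ tails of that length (5.71%, 2.64 to 11.9), against 1.75% of other tails, and they came from JAZ3, JAZ5, JAZ6 and JAZ9. All 6 had at most 40 As. Among the 42 JAZ tails of 41 As and more none was uridylated, which allows a share of up to 7.14% and does not separate them from the 1.32% of other mRNAs. At the other end, 7 of 10 JAZ tails under 10 As were uridylated.

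**Figure D4:**
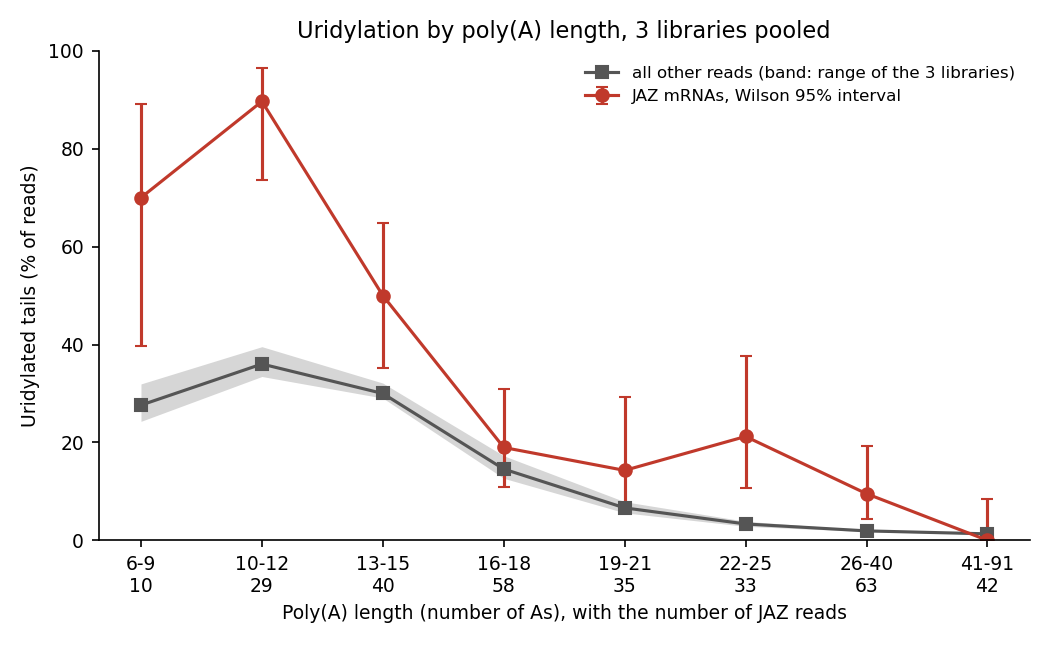
Uridylated share by poly(A) length, in number of As, for the pooled JAZ reads (red, 95% Wilson intervals) and all other reads (grey, band for the range of the 3 libraries). Numbers under the axis are JAZ reads; the JAZ share is highest at 10 to 12 As (89.7%) and 0 at 41 As and more.

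The other genes of the jasmonate pathway were taken as lists, with all members counted. The share over all tested mRNAs to set beside each list was 9.13% called above, and 7.73% at matched length. Of 23 genes of jasmonate signalling outside the family, 8 reached 20 reads, 4 were called above and 0 below, with a median share of 14.2%. At matched length 2 were above, COI1 (ratio 2.57) and MYC2 (ratio 2.51). COI1, the receptor, was uridylated in 3 of 11, 3 of 3 and 2 of 6 reads (40% of 20, adjusted p = 0.00252, exact conditional test). MYC2, the bHLH factor that JAZ proteins bind and inhibit, had 9 of 19, 14 of 49 and 8 of 25 (33.3% of 93, adjusted p = 3.41e-08, same exact test). Both were above their libraries in all 3 replicates.

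MED25, a Mediator subunit that works with MYC2, had 2 of 20, 4 of 9 and 5 of 11 uridylated reads (27.5% of 40, adjusted p = 0.00688, exact conditional test). MYB21, a factor of stamen and petal growth downstream of jasmonate, had 12 of 60, 2 of 7 and 1 of 8 (20% of 75, adjusted p = 0.00851, same exact test). Each of these mRNAs was above its library in all 3 replicates. For MYB21 in replicate 3 this rests on 1 uridylated read, against 11.6% of the library, or 12.5% without the 3′RACE-seq mRNAs. Neither mRNA was called at matched length (ratio 1.81 and adjusted p = 0.155 for MED25, 1.65 and 0.159 for MYB21, same exact test).

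Of 15 genes of jasmonate synthesis, 6 were tested, 2 were called above and 0 below, with a median of 16.2%. LOX2, a plastid lipoxygenase, had 24 of 159, 29 of 142 and 73 of 226 uridylated reads (23.9% of 527, adjusted p = 2.63e-18, exact conditional test) and was called above at matched length too (ratio 1.94). LOX3, another lipoxygenase, had 5 of 14, 1 of 4 and 0 of 2 (30% of 20, adjusted p = 0.0326, same exact test), and was not called at matched length (adjusted p = 0.112). Of 29 Aux/IAA genes, which encode repressors degraded through the auxin receptor much as JAZ proteins are through COI1, 7 were tested and 1 was called above, IAA16 (13 of 84, 0 of 5 and 3 of 8, 16.5% of 97, adjusted p = 0.0293, same exact test), with a median of 9.23%. At matched length IAA16 was not called (ratio 1.28, adjusted p = 0.553, exact test), and 1 other was, IAA4 (2 of 44, 4 of 15 and 3 of 14, ratio 2.60, adjusted p = 0.0371), which is named after its values were seen. The remaining JAZ and TIFY relatives, 9 genes, gave 31 reads from 7 genes, of which 3.23% were uridylated, and none reached 20 reads. Among these relatives, JAZ11 had 0 of 6 and JAZ13 had 0 of 2 uridylated reads, and JAZ4 had no read. Pooled over all members of each list, 17.8% of 512 signalling, 20.4% of 800 synthesis and 11.9% of 789 Aux/IAA reads were uridylated. The pooled JAZ share was 26.5% of 310 reads. These pools include mRNAs under 20 reads, which the medians leave out. The differences between these lists were not tested.

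**Figure D5:**
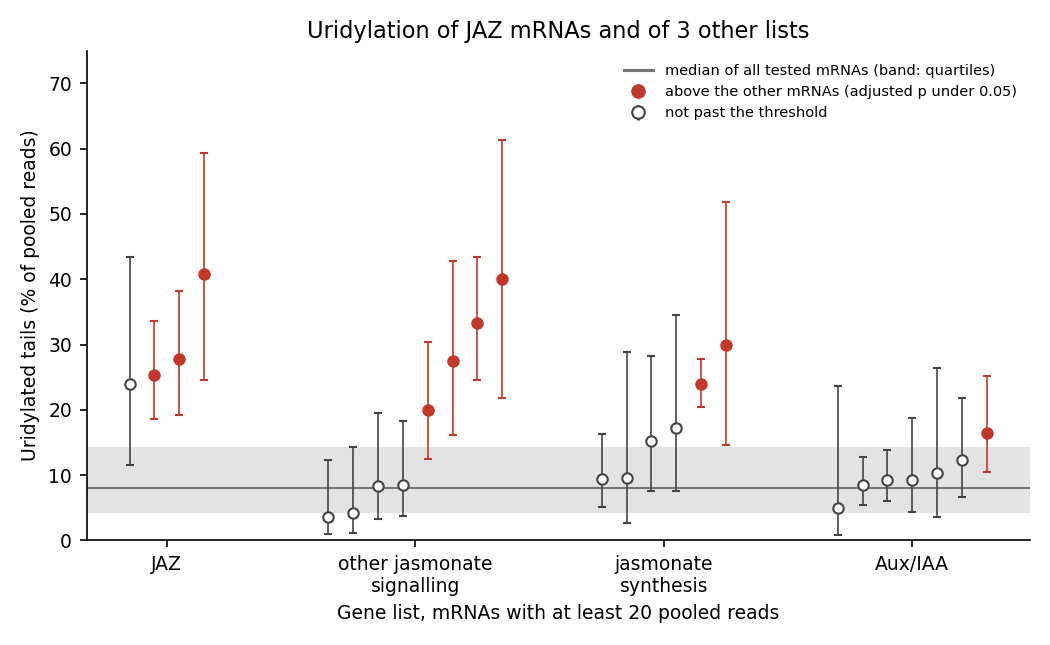
Uridylated share of pooled reads, with 95% Wilson intervals, for each mRNA with at least 20 pooled reads in the JAZ family and 3 other lists. Filled red points were called above the other mRNAs (3 of 4 JAZ, 4 of 8 signalling, 2 of 6 synthesis, 1 of 7 Aux/IAA), as were 9.13% of all tested mRNAs. The grey line and band give the median of all tested mRNAs, 8.00%, and the quartiles, 4.20% and 14.3%.

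The tail profile of the pooled JAZ reads was compared with those of 346 mRNAs of at least 200 reads, by the total variation distance over 6 classes (under 10, 10 to 25 and over 25 As, each plain or uridylated), where 0 means equal shares. The median distance was 0.220. CCL (AT3G26740), whose transcript is known to be unstable and clock-controlled, was nearest at 0.0519, with 21.4% of its 238 tails uridylated. AT3G15450 followed at 0.0591 (25.6% of 246) and AT1G07940, which shares 14.9% of its reads with other genes, at 0.0726 (30.4% of 382). The 3 libraries contribute in unequal numbers to each profile, and the distance is a description over pooled reads.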

How the data were processed

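TAIL-seq libraries were made by the authors from ribodepleted RNA of flowers (flower buds in the study's methods) with a tagged 3′ adapter and partial RNase T1 digestion. Read 1 was mapped by the authors to TAIR10 with HISAT2 2.1.0 and Bowtie2, and genes were assigned by bedtools 2.17.5. Reads with the same first cycles of read 2 had been collapsed and cytosolic mRNAs kept. The deposited table gives, for each read and gene, other values than counts: the lengths in nucleotides of the poly(A) stretch (6 As or more), of the added nucleotides and of the whole extension, up to 91 nucleotides, not normalized. An added U is recorded as its complement. The authors' calls of U, G or C were used to find uridylated tails.

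Of 455742 rows, 172 repeats of a read and gene were dropped, leaving 442916 reads. Tests are exact conditional tests (sums of hypergeometric distributions over strata, two-sided) with Benjamini-Hochberg adjustment over all mRNAs with at least 20 pooled reads, the study's minimum, at 0.05, tested on simulated data. They combine reads and do not allow for extra spread between libraries, for which a beta-binomial model was an alternative. Wilson intervals are at 95%, and the limit that 0 events allow was set at 3 events. Alternatives were leaving out replicates, other minima (10 and 50), at least 2 Us, other tests, equal weights and pooled reads. Others were tail length over all tails by number of As, and removal of shared reads, of tails at the read limit and of 3′RACE-seq mRNAs. The removal of JAZ tails that match a genomic run was added after seeing the data. The JAZ members and the other lists were chosen with earlier results of these data known. Named genes are all members, the JAZ genes outside them, called genes of each list, and the 3 mRNAs of at least 200 reads with the nearest tail profile. Positions and strands come from the RefSeq annotation of TAIR10.1. Python 3.11.15, NumPy 2.4.6, SciPy 1.17.1, pandas 2.3.3 and Matplotlib 3.10.9 were used.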

Additional observations from a re-analysis of the deposited data

How the results depend on the processing

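None of the 4 JAZ mRNAs tested for uridylation changed its direction under the alternatives in which it was tested. Leaving out each replicate in turn gave 99 to 197 mRNAs above and 104 to 197 below in uridylation, 83 to 149 above at matched length and 72 to 144 with fewer tails over 25 As, against 314, 245, 266 and 166 with all libraries. The called JAZ mRNAs numbered 1 to 3 in each uridylation test. Fewer reads, and fewer mRNAs reaching 20 reads, enter these fits. The single call without replicate 1 was JAZ9. With at least 2 Us required, 159 mRNAs were above and 160 below, 101 were above at matched length, JAZ calls fell to 1 (JAZ9) and to 0 at matched length, and the mean JAZ share was 9.93%, or 11.4% at 10 to 25 As. A minimum of 10 reads gave 509 mRNAs above. A minimum of 50 reads gave 121, and 111 at matched length. JAZ5, JAZ6 and JAZ9 kept their calls under the Cochran-Mantel-Haenszel test (adjusted p of 1.79e-06, 2.04e-08 and 7.86e-09) and under a beta-binomial model with an overdispersion of 0.0049 (0.000547, 0.000244 and 6.01e-05). With the 3′RACE-seq mRNAs removed, 3 JAZ mRNAs were still called in each uridylation test. The ratio of JAZ9 at matched length was then 1.76 (adjusted p = 0.00357, exact conditional test). JAZ1 was called under none of the alternatives in which it was tested. The replicate numbers pair no groups, since the 3 libraries form a single group, and the JAZ reads were compared with the other reads of their own library.

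Depth limits the JAZ values: 6 of 10 members had under 20 pooled reads, and each member's percentage in a single library rests on at most 72 reads. The design has no second genotype or condition. The p-values of the exact tests reflect counting error of reads in these 3 libraries and do not measure the spread between them. Tails under 6 As were not recorded and tails of 91 nucleotides are lower bounds, which concerns 3 JAZ tails. Read positions were not used here, so 3′ ends inside genomic runs of As could not be told apart from tails.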
